A study of Homo sapiens with 8 samples.

Results

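The 83 cytosolic ribosomal protein genes were examined in 143B cells, a human osteosarcoma line, after transfection with a NELL1 knockout plasmid. NELL1 encodes a secreted protein known for promoting bone formation. The members were all symbols of large-subunit (RPL), small-subunit (RPS), stalk (RPLP) and RPSA genes, with a value in all 8 libraries. Symbols of pseudogenes and of the S6 kinases were left out. The rule matched 87 of the 54174 symbols in the table. Of the 4 that were left out, RPL10L, RPS4Y1 and RPS4Y2 were blank throughout and RPL3L, a paralog known from striated muscle, had a value in 1 control library, -6.57 on the log2 scale. The 83 members comprised 43 large-subunit genes, 31 small-subunit genes, 3 stalk genes and 6 paralogs, and all 83 passed the filter on low values. All cells were 143B and received a plasmid by transient transfection with TransIT-LT1. The 4 control libraries came from cells given the vector plasmid and the 4 knockout libraries from cells given the plasmid labelled for NELL1 knockout, both for 48 h. Total RNA was taken from the whole transfected culture, with no clone or sort named. The submitters call the 4 libraries of a group biological replicates without saying whether they came from separate transfections, and if they did not, the p-values measure only the spread between these samples.

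The cytosolic ribosome joins a small subunit, which reads the mRNA, to a large subunit, which forms the peptide bond. Each holds ribosomal RNA and many proteins, most of them made from 1 gene each and needed in equal amounts. Most of their mRNAs begin with a C followed by a run of pyrimidines, the terminal oligopyrimidine tract through which the mTOR pathway and LARP1 govern their translation. Tumour cells such as osteosarcoma depend on high ribosome output, and paralogs such as RPS27L and RPL22L1 are known to be expressed differently from the core genes.

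Most members share the first letters of their mRNA in the reference sequence. RefSeq start sites on GRCh38.p14 were matched for 67 members, and 47 of them (70.1%) had a C at the start followed by at least 4 pyrimidines. This held for 7.52% of 7356 other tested genes and for 5.14% of the 27305 genes in the promoter table. The windows below cover 15 bases before the listed start and 15 bases from it, on the gene's own strand 5′ to 3′, with the pyrimidine run from the start in capitals. They are shown for the 3 members that passed the test over all libraries (RPS27L, RPS26, RPS28), for 4 paralog pairs, and for 2 genes of chromosome 4 with large changes in part of the libraries. No strand other than the gene's own was read, and no overlap with another motif was examined.
RPS27L: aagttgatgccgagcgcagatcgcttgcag
RPS27: atttccgctttcgctCCTTTCCggcggtga
RPS26: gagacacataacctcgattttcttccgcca
RPS28: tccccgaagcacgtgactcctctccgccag
RPL26L1: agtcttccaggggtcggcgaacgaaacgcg
RPL26: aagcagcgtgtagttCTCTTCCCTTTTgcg
RPL22L1: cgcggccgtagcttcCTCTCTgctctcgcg
RPL22: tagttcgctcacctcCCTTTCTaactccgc
RPL36AL: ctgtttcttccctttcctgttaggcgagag
RPL36A: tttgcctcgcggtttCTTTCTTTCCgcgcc
RPL34: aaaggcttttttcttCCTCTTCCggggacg
RPS3A: cgactcccacttccgCCCTTTTggctctct
The windows of RPS27L (chr15:63157463-63157492, minus strand), RPS26 (chr12:56041903-56041932, plus) and RPS28 (chr19:8321481-8321510, plus) have no such run at the listed start. RPS27 (chr1:153990747-153990776, plus) and RPL26 (chr17:8383179-8383208, minus) carry it, while RPL26L1 (chr5:172958714-172958743, plus) does not. Both members of the RPL22 pair carry it, RPL22L1 at chr3:170870181-170870210 and RPL22 at chr1:6199581-6199610, both on the minus strand. RPL36A (chrX:101390996-101391025, plus) carries it and RPL36AL (chr14:49620612-49620641, minus) does not. RPL34 (chr4:108620561-108620590, plus) and RPS3A (chr4:151099613-151099642, plus) both carry it. The starts are those listed by RefSeq and were not measured in these cells.

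Values were the deposited log2 values, quantile normalized between libraries, so that a change common to most genes cannot be seen. The unit before the logarithm is not stated, no counts are given and the depth of each library is unknown. The base of 2 was inferred. NELL1 itself was at -6.97, -6.97, -4.53 and -5.00 in control replicates 1 to 4 and at -4.82, -5.87, blank and -6.96 in the knockout libraries, so its level did not check the labels. Of the mesenchymal markers, all 6 had a value and 2 could be tested: SPARC was higher (0.62, adjusted p = 0.0294, limma) and VIM lower (-0.43, adjusted p = 0.0425; 0.0507 with the replicate number as a block). Markers of blood, epithelium and endothelium had a value for 7 of 9 genes, of which only EPCAM reached the tested range, with a mean of 2.59 in control and 2.27 in knockout libraries (adjusted p = 0.345, limma). Knockout libraries 1 and 2 resembled each other closely, as did knockout libraries 3 and 4. The standard deviation over members of the difference between 2 libraries was 0.049 for knockouts 1 and 2 and 0.107 for knockouts 3 and 4. It was 0.27 to 0.294 for any library of the first pair against any of the second, and 0.05 to 0.088 among controls. Results are therefore given for all 8 libraries and within replicates 1 and 2 and replicates 3 and 4.

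Across all 8 libraries few ribosomal protein genes differed between knockout and control. In limma's test over 9016 genes with Benjamini-Hochberg adjustment, 3 of 83 members passed an adjusted p of 0.05 (3.61%), against 13.1% of all genes tested. RPS27L and RPS26 were higher in knockout, 2 members against 7.02% of all genes in that direction, and RPS28 was lower, 1 member against 6.1% of all genes. Without adjustment 19 members (22.9%) had a p under 0.05, against 29.7% of all genes. The median change (knockout minus control, log2) was -0.08 over members, with 62 of 83 below 0, against a median of 0.01 over all tested genes, of which 4392 were below 0. The 95% interval of the change lay within 0.25 of 0 for 30 members and within 0.5 for 74, and 2 members, RPS27L and RPL26L1, had an estimate of at least 0.5. The groups did not overlap in 18 members (21.7%), 4 higher and 14 lower, against 22.9% of all genes tested. Of those 9016 genes, 1123 were higher without overlap and 938 lower, so the members leaned to lower values, a difference that was not tested.

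**Figure D1:**
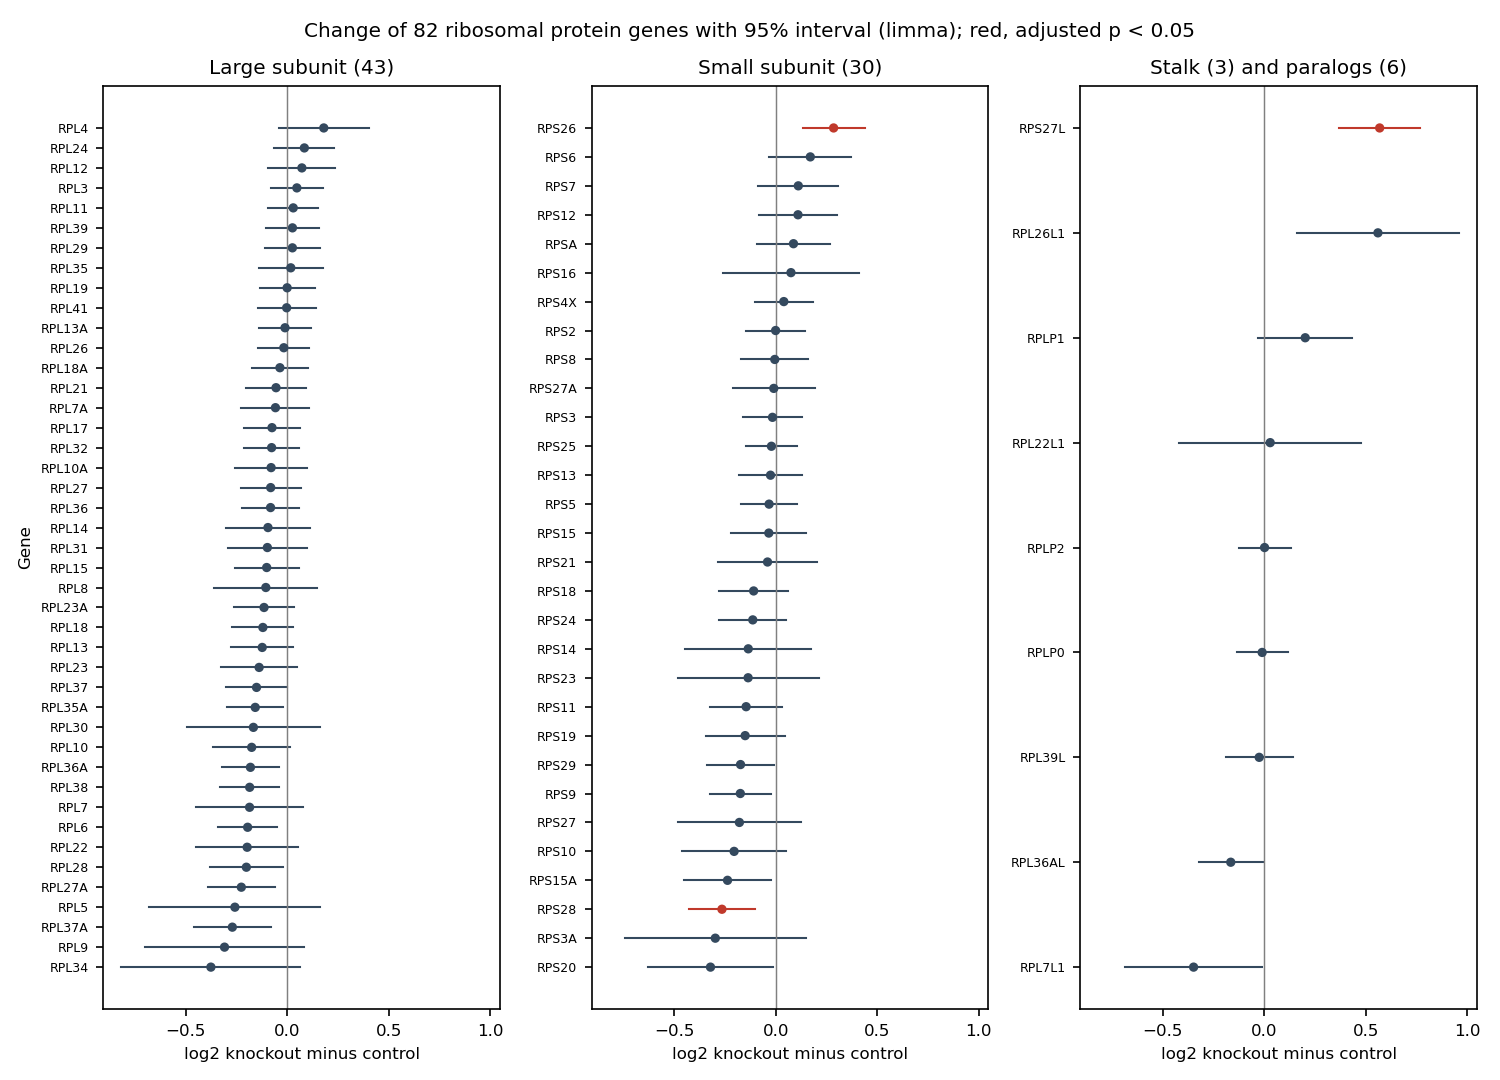
Each point is the log2 change (knockout minus control, x axis) of 1 of 82 genes, with its 95% interval from limma, in panels for the large subunit, the small subunit, and the stalk and paralogs. Red marks RPS27L, RPS26 and RPS28, the members that passed the test, and RPL26L1, RPL34, RPS3A and RPL5 are among those with wide intervals.

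The member with the greatest change over all libraries was RPS27L, the paralog of the small-subunit gene RPS27 and a known target of p53. Its log2 values were 1.29, 1.48, 1.20 and 1.26 in controls 1 to 4 and 1.75, 1.82, 1.99 and 1.95 in knockouts 1 to 4. Every knockout library was above every control. The means were 1.31 ± 0.12 (SD, n = 4) and 1.88 ± 0.11 (SD, n = 4), a change of 0.57 ± 0.09 (SE) or 1.48-fold, with an adjusted p of 0.00694 in limma. RPS27L was higher in both sets, by 0.39 for the libraries numbered 1 and 2 and by 0.74 for those numbered 3 and 4. It was among the lower values tested, and its filter is a mean of at least 1. With the 2 libraries of each knockout pair averaged to 1, its adjusted p was 0.0663.

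RPS26, which lies at the mRNA exit channel of the small subunit and is mutated in some cases of Diamond-Blackfan anaemia, stood at 6.38, 6.46, 6.57 and 6.49 in controls and 6.74, 6.68, 6.82 and 6.80 in knockouts. All 4 knockout libraries were above all 4 controls. The change was 0.28 ± 0.07 (SE), 1.22-fold (adjusted p = 0.0290, limma). The change was 0.29 for the libraries numbered 1 and 2 and 0.28 for those numbered 3 and 4. The call was lost with the replicate number as a block (adjusted p = 0.0533, limma) and with averaged knockout pairs (adjusted p = 0.159). It was also lost with a correction for GC content and transcript length. Among the 8 fits that left out 1 library it held only without control 3 and without knockout 2, and in the other 6 the adjusted p reached up to 0.0922.

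RPS28, another small-subunit protein near the exit channel, stood at 7.48, 7.51, 7.61 and 7.53 in controls and at 7.26, 7.37, 7.30 and 7.13 in knockouts. All 4 knockout libraries were below all 4 controls. The change was -0.27 ± 0.07 (SE), 0.832 of the control level (adjusted p = 0.0423, limma), with -0.18 in the libraries numbered 1 and 2 and -0.35 in those numbered 3 and 4. The call was lost with the replicate block (adjusted p = 0.0783) and with averaged pairs (adjusted p = 0.162). Of the fits that left out 1 library, only the one without knockout 2 kept it, and the adjusted p reached up to 0.116 in the others. With the block, RPS27L was the 1 member called (adjusted p = 0.0274).

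**Figure D2:**
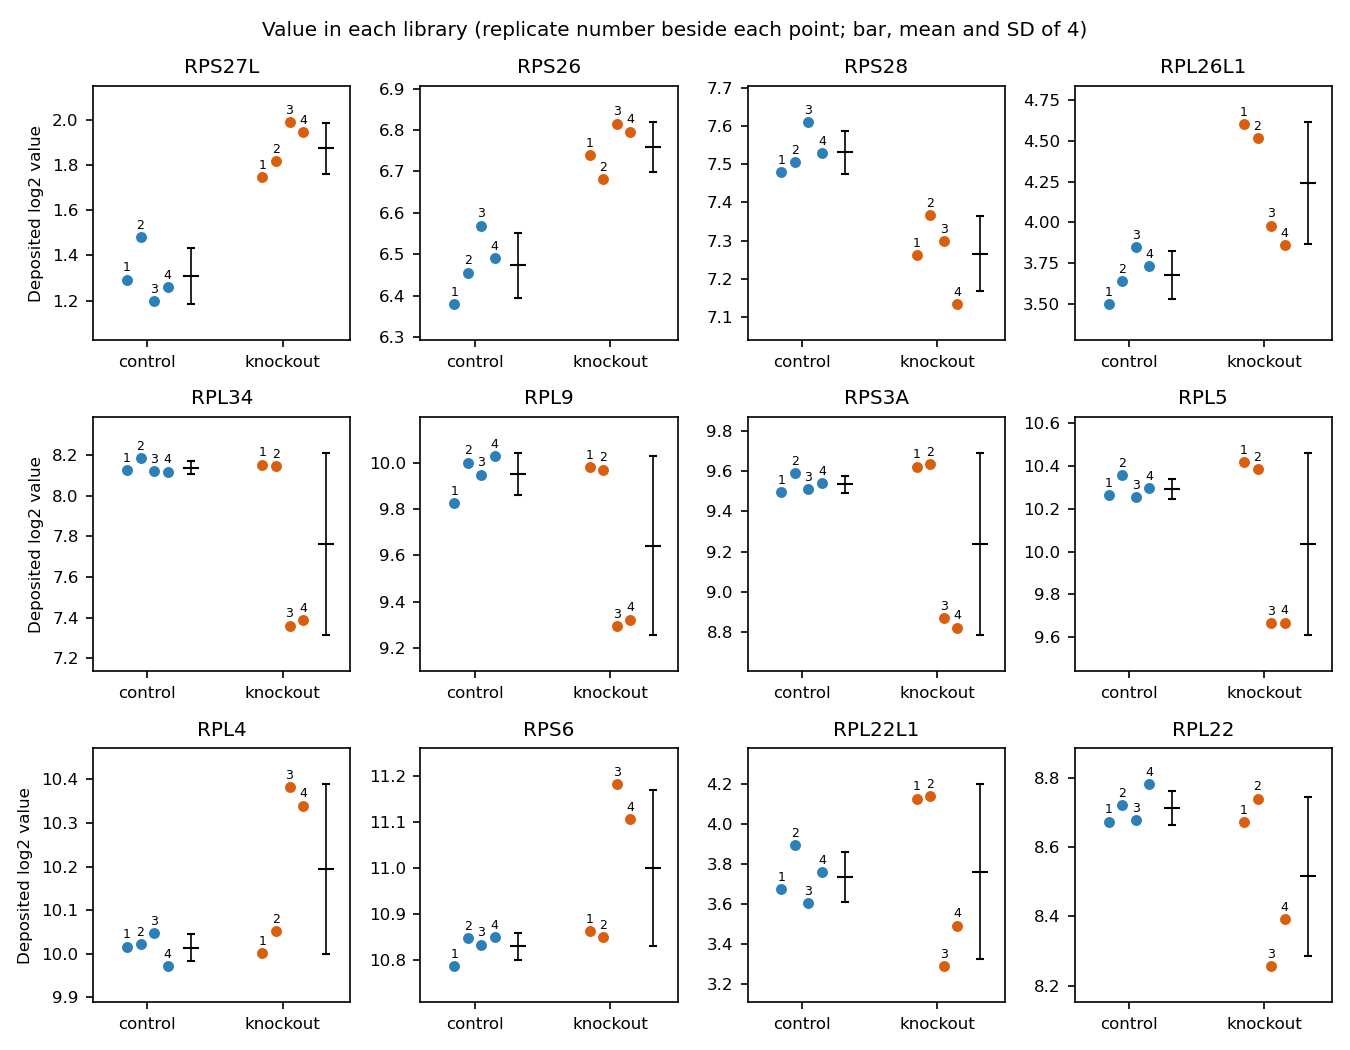
Deposited log2 values (y axis) of 12 members in each control and knockout library, numbered by replicate, with bars for the mean and SD of 4. In RPS27L, RPS26 and RPS28 the groups are apart, whereas in RPL34, RPL9, RPS3A, RPL5, RPL4, RPS6 and RPL22 knockouts 3 and 4 stand away from the other libraries and in RPL26L1 knockouts 1 and 2 do.

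None of the 43 large-subunit genes passed the test over all libraries in limma, and 8 had an unadjusted p under 0.05. The shares over all tested genes were 13.1% and 29.7%. Their median change was -0.10, with 35 of 43 below 0. Several members had knockout values wholly below the controls without passing the test. These were named after their values were seen, as were all genes outside the paralog pairs and the list of members with textbook roles. RPL37A stood at 8.65, 8.69, 8.70 and 8.63 in controls and 8.50, 8.56, 8.29 and 8.24 in knockouts, a change of -0.27 (adjusted p = 0.0674, limma). Among the 8 fits that left out 1 library it passed only without knockout 2 (-0.32, adjusted p = 0.0494). In the others the adjusted p reached up to 0.167. RPL27A had a change of -0.23 (adjusted p = 0.0727) and RPL38, which in mice is known for its part in the translation of Hox mRNAs, one of -0.19 (adjusted p = 0.0902).

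RPL5 and RPL11, which bind 5S rRNA together and restrain MDM2, had different values. RPL11 ranged from 10.03 to 10.12 over all 8 libraries, a change of 0.03 with a 95% interval from -0.09 to 0.15. RPL5 stood at 10.26, 10.36, 10.25 and 10.30 in controls and at 10.42, 10.39, 9.67 and 9.67 in knockouts, so that knockouts 3 and 4 alone were low. Over all libraries its change of -0.26 did not pass the test (adjusted p = 0.392, limma). RPL10, a late-joining protein of the large subunit that is mutated in some T-cell leukaemias, had a change of -0.18 (95% interval -0.37 to 0.01). RPL13A, known from the interferon-responsive GAIT complex, had one of -0.01 (95% interval -0.14 to 0.12).

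Of the 31 small-subunit genes 2 passed (6.45%, against 13.1% of all genes), RPS26 and RPS28. An unadjusted p under 0.05 was found for 7, against 29.7% of all genes. The median change was -0.03, with 23 of 31 below 0. RPS6, the substrate of the S6 kinases, stood at 10.79, 10.85, 10.83 and 10.85 in controls and 10.86, 10.85, 11.18 and 11.11 in knockouts, high only in knockouts 3 and 4 (change 0.17, adjusted p = 0.239, limma). RPSA, the laminin-binding protein of the small subunit, stood at 11.10 to 11.12 in controls and at 11.31, 11.32, 11.11 and 11.05 in knockouts, high only in knockouts 1 and 2 (change 0.09, adjusted p = 0.499). RPS14, the gene of the 5q deletion syndrome, stood at 8.78 to 8.82 in controls and at 8.91, 8.93, 8.47 and 8.33 in knockouts, above the controls in knockouts 1 and 2 and below them in knockouts 3 and 4. RPS19, the gene most often mutated in Diamond-Blackfan anaemia, had a change of -0.15 (95% interval -0.35 to 0.04). RPS3, at the mRNA entry channel, had a change of -0.02 and RPS27A, made as a fusion with ubiquitin, one of -0.01.

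The stalk proteins recruit translation factors to the large subunit. RPLP0 ranged from 10.96 to 11.05 and RPLP2 from 11.18 to 11.25 over all libraries, with changes of -0.01 and 0.00. RPLP1 stood at 10.16 to 10.27 in controls and at 10.25, 10.28, 10.45 and 10.70 in knockouts (change 0.20, adjusted p = 0.227, limma). None of the 3 stalk genes passed limma's test or had an unadjusted p under 0.05, against 13.1% and 29.7% of all genes.

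Among the 6 paralogs, RPS27L passed the test and the others did not, and 4 of the 6, RPS27L included, had an unadjusted p under 0.05. Over all tested genes 13.1% passed and 29.7% had such a p, and 6 genes are too few to compare with these shares. RPS27, the partner of RPS27L, stood at 11.31, 11.31, 11.31 and 11.41 in controls and at 11.41, 11.41, 10.91 and 10.91 in knockouts, with a change of -0.18 (adjusted p = 0.407, limma). RPL26L1 stood at 3.50, 3.64, 3.85 and 3.73 in controls and at 4.60, 4.52, 3.98 and 3.86 in knockouts. Its groups did not overlap, and knockouts 1 and 2 were well above knockouts 3 and 4. The change of 0.56 ± 0.18 (SE) missed the threshold (adjusted p = 0.0693, limma). Among the 8 fits that left out 1 library it passed only without knockout 4 (0.69, adjusted p = 0.0367). In the others the adjusted p reached up to 0.18. RPL26 ranged from 10.72 to 10.82 over all libraries, a change of -0.02.

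RPL22L1, whose splicing and level RPL22 is known to restrain, stood at 3.67, 3.90, 3.61 and 3.76 in controls and at 4.13, 4.14, 3.29 and 3.49 in knockouts. It was above the controls in knockouts 1 and 2 and below them in knockouts 3 and 4, and its change over all libraries was 0.03 (adjusted p = 0.939, limma). RPL22 stood at 8.67 to 8.78 in controls and at 8.67, 8.74, 8.26 and 8.39 in knockouts, low in knockouts 3 and 4. RPL7L1, a nucleolar protein of ribosome assembly, stood at 5.89, 5.89, 6.02 and 5.97 in controls and at 5.88, 5.88, 5.31 and 5.31 in knockouts (change -0.35, adjusted p = 0.156), and its parent RPL7 had a change of -0.19 (adjusted p = 0.327). RPL36A and RPL36AL had changes of -0.18 (adjusted p = 0.0861, limma) and -0.17 (adjusted p = 0.153), with no overlap between the groups in either gene. In the remaining pairs RPL39 and RPL39L had changes of 0.03 and -0.03, RPL3 had 0.05 and RPS4X, the X-linked copy, had 0.04.

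Within replicates 1 and 2 the members divided in both directions. In this fit of 2 libraries a group 18 of 83 members passed (21.7%), 10 higher and 8 lower, against 59.7% of all genes. Of all 9016 genes 2978 passed as higher and 2402 as lower. The median change of members was -0.0048. RPL26L1 rose by 0.99 (adjusted p = 0.000116, limma), RPL22L1 by 0.35 (adjusted p = 0.00874) and RPSA by 0.20 (adjusted p = 0.0105). RPL28, a large-subunit protein, stood at 6.15 and 6.16 in controls 1 and 2 and at 5.80 and 5.86 in knockouts 1 and 2, and fell by 0.32 (adjusted p = 0.00207). Knockouts 1 and 2 were both above every other library in 15 members (18.1%) and both below in 7 (8.43%), against 23.4% and 20.4% of all tested genes. The libraries of a pair lay so close together that the p-values of this fit rest on a very small spread.

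Within replicates 3 and 4 lower values prevailed. Here 28 of 83 members passed (33.7%) against 33.1% of all genes. Of these 22 fell, against 17.4% of all genes in that direction, and 6 rose, against 15.7%. The median change was -0.13, with 65 of 83 below 0, against -0.0021 over all genes. RPL34 stood at 8.12 and 8.12 in controls 3 and 4 and at 7.36 and 7.39 in knockouts 3 and 4 and fell by 0.75 (adjusted p = 0.000778, limma), while knockouts 1 and 2, at 8.15 and 8.14, lay within the range of all controls. RPL9, RPS3A and RPL7L1 each fell by 0.68 and RPL5 by 0.61. RPS27L rose by 0.74, and RPLP1 and RPL4 by 0.35 each.

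The 2 sets of libraries differed in which members moved. Knockouts 3 and 4 were both below every other library in 41 of 83 members (49.4%) and both above in 8 (9.64%), against 22.2% and 22.3% of all tested genes, a difference that was not tested. Of the members called in both sets 5 had 1 sign throughout and 3 had opposite signs, a division near that of all genes, where 33.8% of the 1903 called in both had opposite signs. These 3 were RPS23 (0.16 and -0.44), RPS14 (0.13 and -0.41) and RPL30 (0.13 and -0.47), all higher in the first set and lower in the second. The sets were recognised from the knockout values, and the difference between them was not tested. Controls 3 and 4 did not form such a close pair. The SD over members of their difference was 0.088, the largest among controls. The spread showed the same division: the median SD of a member was 0.05 over the controls and 0.11 over the knockouts, larger in the knockouts for 66 of 83 members, and for other tested genes it was 0.10 and 0.17.

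**Figure D3:**
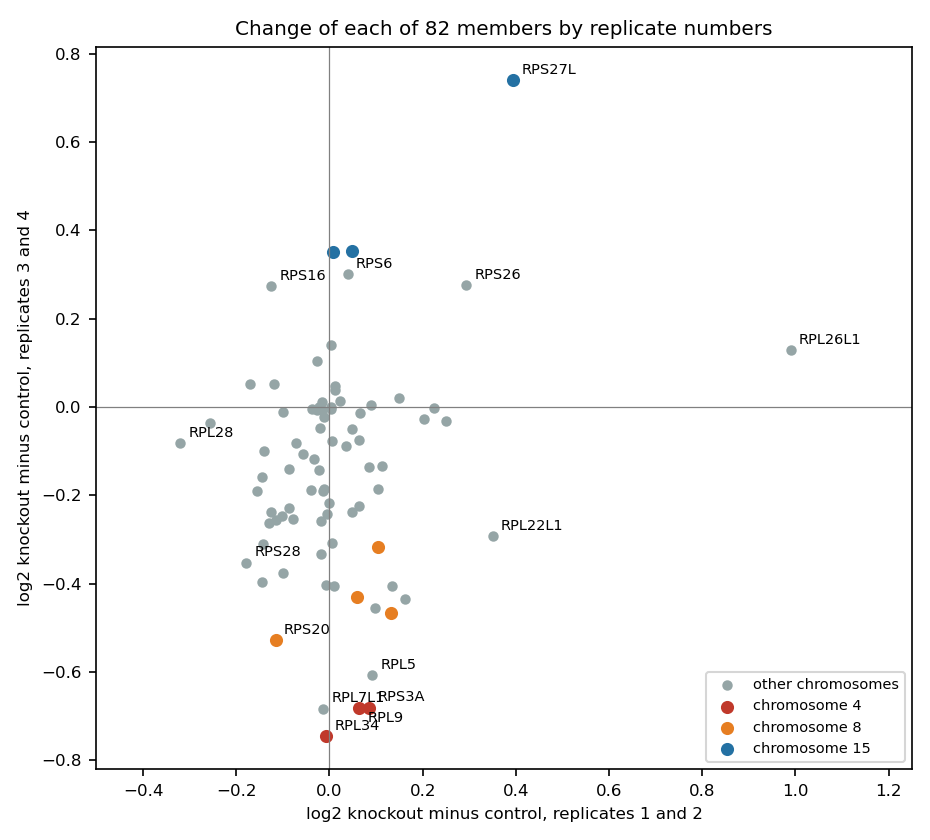
Each point is 1 of 82 members, with its log2 change (knockout minus control) in replicates 1 and 2 on the x axis and in replicates 3 and 4 on the y axis, coloured by chromosome. The points spread downward along the y axis, the 3 genes of chromosome 4 sit near -0.7, and the genes of chromosome 15 are above 0.3, while RPL26L1 alone lies far to the right.

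The members that moved most in replicates 3 and 4 lay near other genes that moved the same way. Their median change on chromosome 4 was -0.68 (RPL9, RPL34 and RPS3A), and that of the 295 other tested genes there was -0.45. On chromosome 8 it was -0.45 (RPS20, RPL7, RPL30 and RPL8) against -0.22 for 313 other genes. On chromosome 15 it was 0.47 over 4 members, RPS27L among them, against 0.38 for 307 other genes. These 3 chromosomes held 11 members, of which 7 were lower and 4 higher in replicates 3 and 4. On chromosome 1 the 5 members had a median of -0.40 and the 931 other genes -0.08, with RPL5 at -0.61 and RPL11 at 0.05. On chromosome 19, which holds the most members, the 12 genes had a median of -0.08 and the 510 others 0.03.

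Closer to each gene, the median change of the 20 nearest tested genes that are not ribosomal protein genes was set beside the change of the member. For RPL34 these neighbours had a median of -0.57 in replicates 3 and 4, for RPL5 -0.51, for RPS27 -0.50 and for RPL7L1 -0.37. For RPS27L it was 0.39. Over the 83 members the correlation between a member and its neighbours was 0.75 (Pearson) and 0.47 (Spearman) in replicates 3 and 4. In replicates 1 and 2 the values were 0.34 and 0.19. These are descriptions across genes, which share libraries and, where they adjoin, neighbours. The neighbours moved by over 0.2 for 18 members in replicates 3 and 4, and all 18 had the sign of their neighbours. Of those 18, 16 passed the test in replicates 3 and 4, 11 lower and 5 higher. Over all tested genes 33.1% passed, 17.4% lower and 15.7% higher. The 18 were picked by the change of their neighbours in these same libraries, and the share among other genes of such regions was not taken. The count is therefore no result about ribosomal protein genes.

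The other 65 members lay away from such regions. In replicates 3 and 4 their median change was -0.09, from -0.44 to 0.28, and the correlation with their neighbours was 0.02. Of these 65, 12 passed the test in replicates 3 and 4 (18.5%), below the 33.1% of all genes. The 11 that were lower (16.9%) were near the 17.4% of all genes in that direction, while 1 was higher, against 15.7%. The shares of all genes include genes in the shifted regions, so they do not describe a like set. The difference was not tested. RPL37A fell by 0.40 beside neighbours at 0.05, RPL22 by 0.40 beside neighbours at 0.06, and RPS14 by 0.41 beside neighbours at 0.06. RPS26 rose by 0.28 beside neighbours at 0.04, and by 0.29 in replicates 1 and 2, where its neighbours were at -0.02.

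In a fit chosen after seeing the data, the median deviation of the 20 neighbours was subtracted from each member in each library. Over all 8 libraries 6 of 83 members then passed, against 12.4% of all genes. RPS26 (0.30, adjusted p = 0.0173, limma) and RPS27L (0.34, adjusted p = 0.0229) were higher. RPL36A (-0.27, adjusted p = 0.0243), RPL27A (-0.29, adjusted p = 0.0343), RPL37A (-0.30, adjusted p = 0.0343) and RPS20 (-0.21, adjusted p = 0.0485) were lower. RPS28 had a change of -0.29 with an adjusted p of 0.0525. The change of RPL34 went from -0.38 to -0.15 and that of RPS3A from -0.30 to -0.02. The part of these regional shifts in the calls of single members was not tested further.

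**Figure D4:**
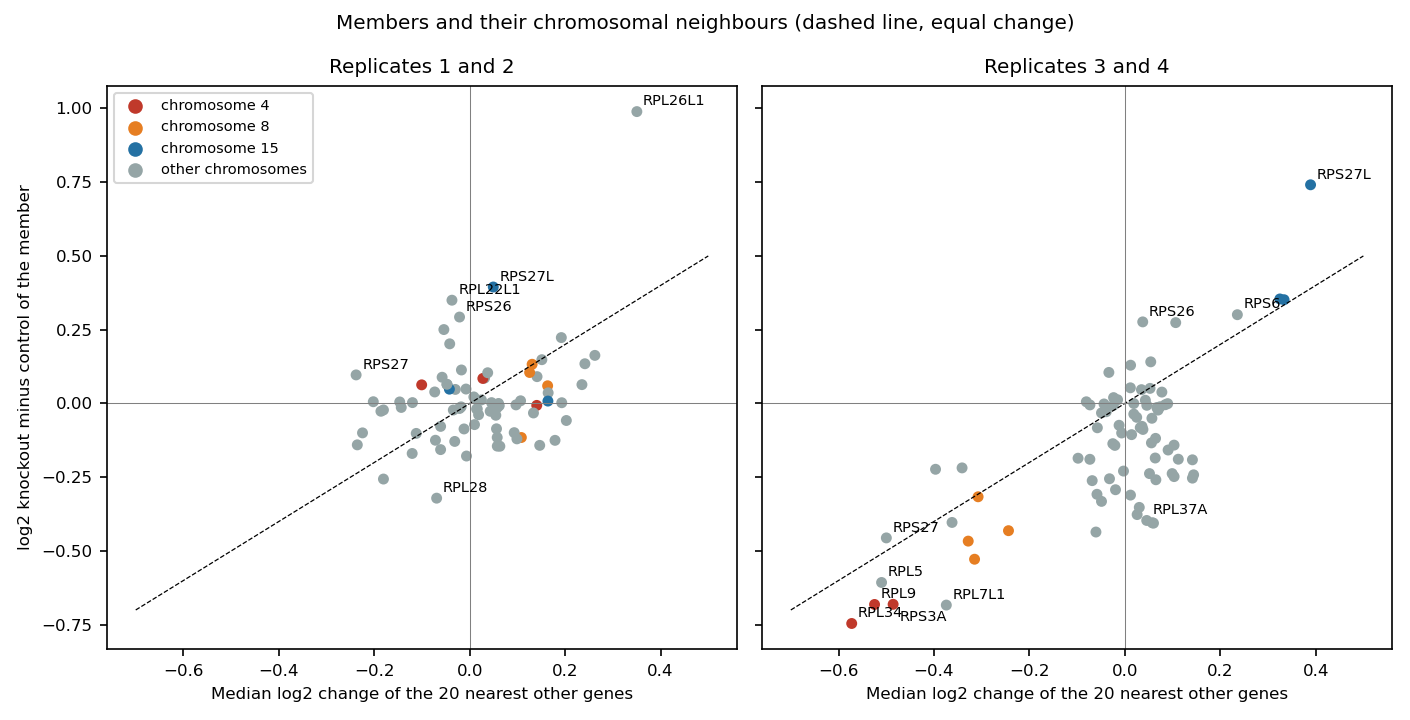
The log2 change of each of 82 members (y axis) is plotted against the median log2 change of its 20 nearest other tested genes (x axis), for replicates 1 and 2 on the left and replicates 3 and 4 on the right. On the right the genes of chromosomes 4, 8 and 15 and RPL5, RPS27 and RPL7L1 have the sign of their neighbours, several of them beyond the dashed line of equal change, while RPS26 and RPL37A sit where the neighbours are close to 0.

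As a body the members held a similar share of the summed normalized values in each library except knockouts 3 and 4. Taken back to a linear scale, they held 26.8%, 26.9%, 27.0% and 26.9% of the summed values in the controls and 27.0%, 27.0%, 25.5% and 25.7% in the knockouts. The median log2 value of a member was 9.55 to 9.64 in the controls, 9.59 and 9.58 in knockouts 1 and 2, and 9.35 and 9.45 in knockouts 3 and 4. The controls and knockouts 1 and 2 overlapped on both measures, and knockouts 3 and 4 were below all of them. Quantile normalization gives all libraries 1 distribution, so these shares and medians follow the ranks of members among all genes. Similar shares are thus partly set by the normalization, and none is an amount of RNA in a library. A fall of members and a rise of other genes past them in rank cannot be told apart. In a whole culture less RNA per cell and fewer cells that make it cannot be told apart either.

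Most members sit at the top of the range, where quantile normalization gives coarse steps. Members held 6 of the 10 highest control means, 35 of the 50 highest and 59 of the 100 highest, and 77 of 83 ranked within the top 500. The median step between successive ranks was 0.0667 within the top 10 ranks and 0.00461 from the top 100 down to rank 500. RPS18, a small-subunit gene of the head, had the same value of 12.13 in 6 of 8 libraries and 11.92 in knockouts 3 and 4. A change of such a gene is therefore seen only once it passes another gene in rank.

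Changes were also read by the pyrimidine start. The median was -0.06 over the 47 with it, from -0.38 to 0.20, and -0.08 over the 20 without it, from -0.35 to 0.57. In replicates 3 and 4 the medians were -0.13 and -0.09. The 3 members called over all libraries were among the 20 without it, as was RPL26L1. A missing run says only that these letters are not at the listed start. In the windows of RPS26 and RPS28 a run of pyrimidines begins within a few bases after that start.

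Genes that build the ribosome, supply it with factors or regulate it were read from lists written from general knowledge. FAU and RACK1 encode ribosomal proteins whose symbols the rule does not match. Neither passed in limma or had an unadjusted p under 0.05, with changes of 0.08 and 0.13. Of 41 initiation factors 4 passed (9.76%), a smaller share than the 13.1% of all genes. EIF3J (0.32, adjusted p = 0.0296) and EIF3K (0.28, adjusted p = 0.0199), both of the eIF3 complex, rose, and EIF4G3 (-0.49, adjusted p = 0.0147), a scaffold of cap binding, and EIF4B (-0.33, adjusted p = 0.0286), a cofactor of the eIF4A helicase, fell, all by limma. With the replicate block the adjusted p was 0.0532 for EIF3J, 0.0561 for EIF3K and 0.0726 for EIF4B. EIF3J lies on chromosome 15, where tested genes other than members had a median change of 0.38 in replicates 3 and 4. Its own change in those libraries was 0.35, and -0.064 after the neighbour correction. The part of the regional shift in its call was not tested. Of 14 elongation and termination factors none passed in limma and none had an unadjusted p under 0.05, against 13.1% and 29.7% of all genes.

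Of 76 ribosome biogenesis factors 1 passed (1.32%, also below 13.1%), TCOF1 (0.27, adjusted p = 0.0484, limma), a nucleolar protein of rRNA transcription, with an adjusted p of 0.105 under the block. The median of that list was 0.03 over all libraries, 0.15 for libraries 1 and 2 and -0.09 for libraries 3 and 4. Of 28 tested regulators (mTOR pathway, LARP and MYC network genes) 2 passed (7.14%, below 13.1%). LARP4, which binds the poly(A) tail of mRNAs, rose (0.30, adjusted p = 0.0354, limma; 0.0541 under the block) and MXI1, an antagonist of MYC, fell (-0.47, adjusted p = 0.0382). Of 78 mitochondrial ribosomal protein genes 9 passed (11.5%, beside 13.1% of all genes in either direction and 7.02% in the higher direction). All 9 were higher, led by MRPS11 (0.48, adjusted p = 0.0353) and MRPL49 (0.39, adjusted p = 0.0226; 0.0593 under the block). Their median was 0.11, with 0.25 for libraries 1 and 2 and -0.05 for libraries 3 and 4, beside -0.0048 and -0.13 for the cytosolic members. The difference between the 2 families of ribosomal protein genes was not tested.

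Transcript length and shared reads limit what single values mean. The members' transcripts are short, with a median length of 687 bases against 1753 for other tested genes. The unit before the logarithm is not stated, so it is unknown whether the ranks and shares given above are corrected for length. They do not compare expression between genes. The table lists 1952 ribosomal protein pseudogene symbols, of which 1, RPSAP58, had any value. Read-through symbols that contain RPS10, RPL17 and RPL36A had values of their own. How reads shared by a member, its pseudogenes and its paralogs were counted is not given in the sources used here, so differences between a paralog and its parent are uncertain to that extent.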

How the data were processed

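Total RNA was sequenced from 8 cultures, with libraries made by the Illumina TruSeq Stranded Total RNA kit after TRIzol extraction, per the labels' protocols. The submitters' processing notes name bcl2fastq, Partek 7.0 and GRCh38, without roles. The authors deposited 1 log2 value per symbol and library. All libraries share 1 distribution, so the values had been quantile normalized. The unit before the logarithm and the counting rule are not given in the sources used here, and depth is unknown.

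Groups came from sample titles. Genes with no blank in the 8 libraries whose mean was at least 1 were fitted with limma 3.58.1 in R 4.3.3 (knockout minus control, no covariate), with Benjamini-Hochberg adjustment over 9016 genes. The script was tested on simulated data. Members and lists were chosen with earlier results of these data known. Genes named in the text were called members without overlap of the groups, members with textbook roles, paralog pairs, and the 2 called genes with the largest rise and fall of each list; others were named after their values were seen. The values of 1 member and 1 listed gene are not reported here, though counts and medians include them. Transcript lengths and GC content came from GENCODE 29, and chromosomes and gene positions from RefSeq.

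Same-numbered control and knockout libraries deviated together (correlations 0.24, 0.27, 0.29 and 0.20), as did those of different number within replicates 1 and 2 or 3 and 4 (0.11 to 0.31), against -0.30 to -0.15 otherwise. The use of the replicate number as a block rests on this check, not on the labels. The check does not tell a shared number from a shared set of libraries. Deviations were taken from the group means, which makes some of these correlations negative by construction.

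Alternatives were the replicate block, other filters, centrings and variance estimates, a batch term, averaged knockout pairs, GC and length correction, subsets of libraries and a stricter threshold.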

Additional observations from a re-analysis of the deposited data

Results flagged for a closer look

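In 12 of 163 groups of 4 libraries 1 library stood far from the other 3, measured by its gap over the group's whole range. Chance alone gives about 1 in 20 such groups. Of the 12, 8 were in control and 4 in knockout libraries, and the range of the group reached 0.2 (log2) only in RPS16 and RPS24. RPS16 was at 10.01 in knockout 4 and at 9.35 to 9.38 in the other knockouts. RPS24 was at 9.27 in control 4 against 9.04 to 9.06 in the other controls. Also high in control 4 were RPS27 (11.41), RPL27A (8.88) and RPL26 (10.82). Control 3 was high for RPL29 (9.91), RPLP2 (11.25) and RPS19 (8.33). In control 2 RPL34 was high (8.19). Among knockouts, RPL11 was high in knockout 4 (10.12), RPLP2 was high in knockout 3 (11.25) and RPLP0 was low in knockout 1 (10.96).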

How the results depend on the processing

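Of the 3 called members, RPS27L stayed called in 23 of 24 alternatives, RPS26 in 14 of 25 and RPS28 in 12 of 25. Leaving out 1 library gave 1 to 4 called members and 391 to 1353 called genes. RPS27L was called in all 8 of these fits, RPS26 in 2 and RPS28 in 1. The fits with 1 called member were those without control 1, 2 or 4 or without knockout 1 or 3. In place of 3 called members there was 1 with the replicate block, 1 with the block and a GC and length correction, 1 at an adjusted p of 0.01, 6 with the GC and length correction alone, 0 with averaged knockout pairs by limma (7 at an unadjusted p under 0.05), 11 with a batch term for replicates 1 and 2 against 3 and 4, 18 in replicates 1 and 2 alone and 28 in replicates 3 and 4 alone. The 6 members called with the GC and length correction included RPS27L and RPS28 but not RPS26. Over all genes that correction called 1289 of 8803, the block 924 of 9016, and the 2 together 1037 of 8803. Chosen after seeing the data, the correction by neighbouring genes gave 6, and 16 in replicates 3 and 4 alone. In place of 1183 called genes there were 729 at a mean of at least 3, 2274 with the batch term, 108 when pairs were averaged, 5380 in replicates 1 and 2, 2987 in replicates 3 and 4, 2142 in those with the neighbour correction and 272 at an adjusted p of 0.01. RPS27L has a mean below 3 and was not tested at that filter. Compared with all 8 libraries, RPS23 (0.16), RPS14 (0.13) and RPL30 (0.13) passed with the opposite sign in replicates 1 and 2. EIF3J changed sign without passing in replicates 3 and 4 with the neighbour correction (-0.064, adjusted p = 0.666, limma). The cause of these differences was not tested. The median change of members stayed below 0 in every fit, from -0.13 to -0.0048. Without counts, no depth limit can be given.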
